A study of Mus musculus with 24 samples.

Results

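The LIN28B axis of fetal blood stem cells was followed here through 7 genes: the RNA-binding protein genes Lin28b and Lin28a, the IGF2 mRNA-binding protein genes Igf2bp1, Igf2bp2 and Igf2bp3, the chromatin gene Hmga2 and the transcription factor gene Arid3a. The rule that picks the members is a list of symbols and uses no measured value, but the list was drawn up with earlier results of these data known. Each of the 7 symbols matched 1 row of the 55487 distinct gene identifiers in the count table, and all 7 passed the filter on low counts, which left 23059 genes for testing. All 7 also passed among the 16 P28 libraries alone. Lin28a and Igf2bp1 did not pass in P28 WT or in E10.5-induced P28 ME taken alone, so between those groups and newborn cells they entered through the side where they were high, and their fall with age is described without a test.

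Bulk RNA-seq had been made from mouse LSK cells (lineage-negative, Sca-1-positive, KIT-positive stem and progenitor cells) in 24 libraries, 4 in each of 6 groups. The series' own design text names lineage-negative KIT-positive sorting instead. The human MLL::ENL leukaemia fusion (ME) was carried in a Tet-off system, in which withdrawal of doxycycline switches the transgene on, and the labels give its induction at embryonic day E10.5 or at birth (P0). The promoter or cell type driving the transgene is not given in the sources used here.

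The groups were newborn (P0) liver cells of wild type (WT), P0 liver cells with ME induced at E10.5, bone marrow cells of WT at postnatal day 28 (P28), P28 marrow cells with ME induced at E10.5, P28 marrow cells with ME induced at P0, and P28 marrow cells labelled ME RLT Vav Txp with ME induced at E10.5. The labels do not expand RLT Vav Txp, and its libraries are numbered 1 to 4 only to name them. Newborn cells came from liver alone and P28 cells from marrow alone, which means that age and tissue cannot be told apart. Nor can fewer cells of a type and less RNA per cell be told apart in bulk samples. The design text calls the 4 samples of a group biological replicates, with no animal named.

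As background, LIN28 proteins bind the precursors of the let-7 microRNAs and keep them from maturing, and mature let-7 in turn lowers the mRNAs of Lin28b, the Igf2bp genes, Hmga2 and Arid3a through sites in their 3′ untranslated regions (UTRs). LIN28B and the genes downstream of it are known for the fetal character of blood stem and progenitor cells, which is lost in the weeks after birth. IGF2BP proteins bind and stabilise mRNAs, HMGA2 bends and opens chromatin and supports stem cell self-renewal, and ARID3A is a DNA-binding protein associated with fetal-type B lymphopoiesis.

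The let-7 family is shown first because its seed, bases 2 to 8, is what the member UTRs pair with. RefSeq's mouse sequences (GRCm38.p6) hold 9 mature let-7 and miR-98 names, and all 9 share the seed GAGGUAG, given in capitals in 4 of them.
let-7a-5p: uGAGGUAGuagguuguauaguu
let-7d-5p: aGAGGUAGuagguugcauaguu
let-7g-5p: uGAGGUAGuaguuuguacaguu
miR-98-5p: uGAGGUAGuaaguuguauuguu

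The other side of the pairing is a site in each member's mRNA. The letters CTACCTCA, which complement the seed and add an A at its 3′ end, were searched on the transcribed strand of the 3′ UTR of 1 coding transcript per gene (GENCODE M21, GRCm38). They were present in all 7 members, against 2.82% of the 20240 genes with a UTR. Known let-7 targets are among the members, so this is a description of them and no test. The first site of each is given with up to 22 bases before it, the match in capitals.
Lin28b, chr10:45381022-45381051, minus strand: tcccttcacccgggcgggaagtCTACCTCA
Lin28a, chr4:134005189-134005218, minus strand: ttggagtgcacagcctgttgaaCTACCTCA
Igf2bp1, chr11:95961778-95961807, minus strand: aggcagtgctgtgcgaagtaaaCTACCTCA
Igf2bp2, chr16:22059473-22059502, minus strand: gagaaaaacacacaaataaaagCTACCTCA
Igf2bp3, chr6:49086787-49086816, minus strand: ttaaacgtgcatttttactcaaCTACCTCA
Hmga2, chr10:120364224-120364251, minus strand: ggggcgccgacattcaatttCTACCTCA
Arid3a, chr10:79953888-79953917, plus strand: cacatgcaaggcaagtttctttCTACCTCA

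The shorter letters CTACCTC, which every CTACCTCA match also holds, occurred 4 times in the UTRs of Lin28b, Igf2bp1 and Hmga2, 2 times in those of Lin28a and Arid3a, and once in those of Igf2bp2 and Igf2bp3. At least 1 such match was present in 8.36% of all UTRs and at least 4 in 0.054%. Long UTRs hold more matches by length alone. Among genes whose UTR was of similar length (from 0.8 times as long to the inverse ratio), 0.091% had as many as Hmga2, 0.335% as many as Lin28b and 0.393% as many as Igf2bp1, but 11.5% as many as Igf2bp2 and 12.8% as many as Igf2bp3.

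LIN28 proteins are known to bind a GGAG in the loop of many let-7 precursors. These letters followed the seed in 9 of the 12 mouse let-7 and Mir98 hairpins of RefSeq, and 44.5% of all 1005 hairpins in that table hold GGAG somewhere. One hairpin with it and one without it are given, with the GGAG in capitals.
Mirlet7g, chr9:106178840-106178927, plus strand: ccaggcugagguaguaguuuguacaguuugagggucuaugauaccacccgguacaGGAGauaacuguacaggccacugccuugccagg
Mirlet7b, chr15:85707319-85707403, plus strand: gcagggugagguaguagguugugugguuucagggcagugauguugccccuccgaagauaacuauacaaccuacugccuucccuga
The microRNAs themselves could not be read from these libraries: all 12 hairpin rows had 0 counts in every library, which with a limit of 3 counts allows up to 0.0333 to 0.0924 CPM (counts scaled to library size). Mature let-7 was therefore not measured.

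In GENCODE M21 coordinates on GRCm38, Lin28b spans chr10:45376620-45486395, Hmga2 chr10:120361275-120476469 and Arid3a chr10:79927043-79955018. Lin28a spans chr4:134003330-134018841, Igf2bp1 chr11:95957163-96005940, Igf2bp2 chr16:22059009-22163299 and Igf2bp3 chr6:49085223-49214957. Igf2bp3 shares 1529 bases, 18.7% of its exon length, with Malsu1 on the opposite strand. Whether the counting used strand is not given in the sources used here, so reads of the overlap could belong to either gene. Malsu1 lay between 26.6 and 105 CPM over all 24 libraries and between 28.6 and 56.6 CPM in the RLT Vav Txp libraries, where Igf2bp3 was at most 1.53 CPM.

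Library totals ran from 31233688 to 89774511 counts. All 10 LSK markers were above 1 CPM in every library of every group, Kit and Ly6a (Sca-1) among them. Both P0 libraries numbered 1 stood apart from the other 6 newborn libraries. Their erythroid marker sums were 664 CPM in WT and 279 CPM in ME, against 5380 to 17875 CPM in the others. Their neutrophil sums were 867 and 764 CPM against 9956 to 31280 CPM, and their macrophage sums 135 and 124 CPM against 1377 to 1979 CPM. The mast cell and basophil sum was 10745 CPM in WT library 1 and 48.1 CPM in ME library 1. The RLT Vav Txp libraries stood apart from the other P28 groups, with macrophage marker sums of 703 to 3106 CPM against 46.2 to 109 CPM and LSK marker sums of 2413 to 3397 CPM against 4641 to 5770 CPM.

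The first comparison asks how the axis changed between newborn liver and P28 marrow in WT cells. The 5 members that also passed the filter in P28 WT alone, Lin28b, Igf2bp2, Igf2bp3, Hmga2 and Arid3a, were all called lower at P28, where 4.56% of all genes were called lower (edgeR quasi-likelihood test, adjusted p under 0.05 by Benjamini-Hochberg). The WT values of the 2 ages did not overlap for any of these 5, which held for 4.38% of all genes in the lower direction.

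Lin28b, the paralog that marks fetal blood cells, was at 34.8, 38.6, 22.9 and 25.8 CPM in the P0 WT libraries and at 3.91, 1.73, 2.86 and 2.07 CPM in the P28 WT libraries. The lowest newborn library was above the highest P28 library. Its level fell 11.5-fold (log2 fold change -3.53 ± 0.76 SE, n = 4 per group, adjusted p = 0.00593 in edgeR).

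Lin28a, its close relative of early embryos, was at 3.57 CPM or less in every WT library. It was at 0.0604, 3.57, 2.45 and 3.34 CPM in P0 WT libraries 1 to 4, and at 0.34 CPM or less in the P28 WT libraries, where library 3 had 0 counts (a limit of 3 counts allows 0.0374 CPM). P0 WT library 1 held 3 counts and lay among the P28 values, while the other 3 newborn libraries held 200 to 275 counts. The fitted log2 fold change was -4.31 ± 1.21 (SE).

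The IGF2BP genes fell by different amounts. Igf2bp1 was at 10.4, 10.49, 7.26 and 7.03 CPM in P0 WT libraries and at 0.112 to 0.278 CPM in P28 WT libraries, so that at P28 it rested on 7 to 18 counts a library. Its fitted log2 fold change was -5.45 ± 0.64 (SE), given without a test. Igf2bp3 was at 100.2, 95.8, 72.8 and 98.8 CPM in P0 WT libraries and at 7.32, 7.46, 12.4 and 7.70 CPM in P28 WT libraries. Every newborn value lay well above every P28 value, with a log2 fold change of -3.40 ± 0.31 (SE, adjusted p = 1.92e-07 in edgeR).

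Igf2bp2, the paralog that adult tissues keep, was at 134, 99.9, 122 and 39.4 CPM in P0 WT libraries and at 18.3, 11.4, 16.8 and 14.2 CPM in P28 WT libraries. Library 4 of the newborn group was the low one, yet it too was above the P28 group, and the change was -2.70 ± 0.36 (SE, adjusted p = 4.9e-05 in edgeR).

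Hmga2 and Arid3a, both DNA-binding, fell least and remained well expressed at P28. Hmga2 was at 166, 142, 79.0 and 181 CPM in P0 WT libraries and at 32.3, 38.6, 51.1 and 38.3 CPM in P28 WT libraries, a log2 fold change of -1.82 ± 0.32 (SE, adjusted p = 0.000824 in edgeR). Arid3a was at 64.7, 62.0, 85.3 and 24.8 CPM at P0 and at 19.0, 13.2, 18.1 and 17.6 CPM at P28, a log2 fold change of -1.80 ± 0.27 (SE, adjusted p = 0.000134 in edgeR). In both genes 1 newborn library, the third for Hmga2 and the fourth for Arid3a, lay nearest to the P28 values without reaching them.

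**Figure D1:**
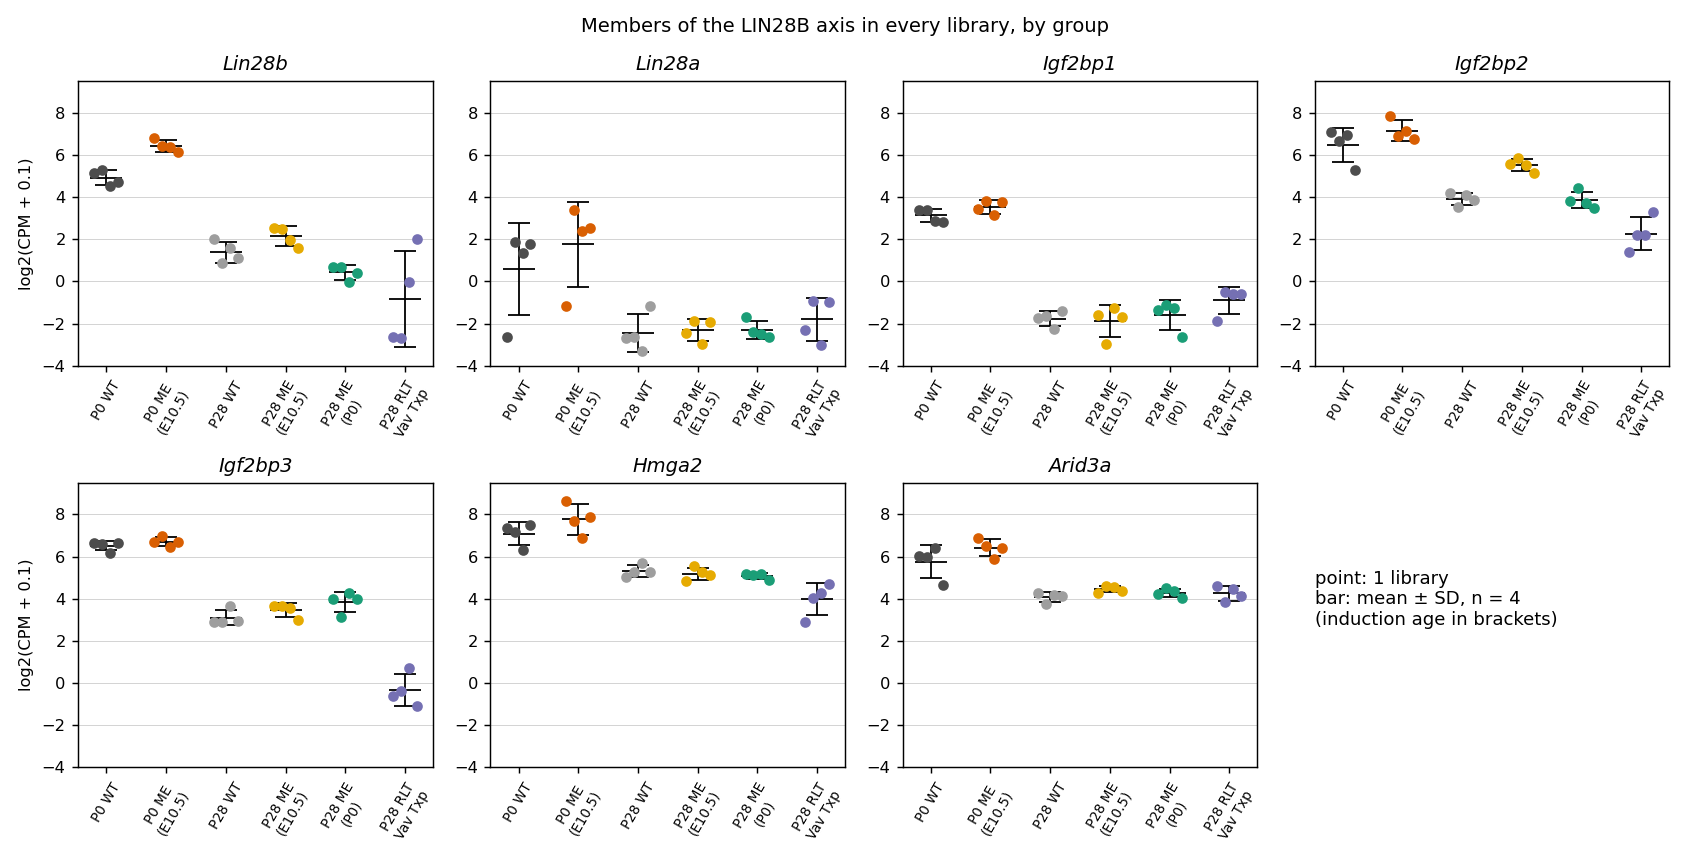
Level of each member as log2(CPM + 0.1) in each of the 24 libraries, by group; points are libraries and black bars the mean ± SD of 4. All 7 genes are high in the newborn groups except Lin28a in the libraries numbered 1 (0.0604 and 0.34 CPM), and Igf2bp3 is lowest in the RLT Vav Txp libraries (at most 1.53 CPM).

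The same comparison in cells with ME induced at E10.5 also called the same 5 members lower at P28, with 8.45% of all genes called lower. None of the 5 overlapped between the ages, and 11% of all genes were separated downwards. These 5 calls held under every alternative run. Lin28b went from 110, 84.9, 83.0 and 69.8 CPM to 5.73, 5.55, 3.81 and 2.88 CPM, a 19.3-fold fall (log2 fold change -4.27 ± 0.78 SE, adjusted p = 0.000851 in edgeR). The fall was seen between every newborn and every P28 library.

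Hmga2 in ME cells went from 395, 207, 117 and 233 CPM to 28.1, 46.3, 38.1 and 34.3 CPM (log2 fold change -2.70 ± 0.33 SE, adjusted p = 1.06e-05 in edgeR). Igf2bp2 went from 229, 119, 140 and 108 CPM to 47.7, 58.2, 45.7 and 34.7 CPM (-1.68 ± 0.35 SE, adjusted p = 0.00183 in edgeR). Its P28 values were far above those of P28 WT. Igf2bp3 had a log2 fold change of -3.24 and Arid3a of -2.02, and the fitted values of Igf2bp1 and Lin28a were -5.92 and -5.56.

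Markers of other cell types fell with the axis between the ages. In WT 6 of 10 hepatocyte, 9 of 10 erythroid, 8 of 9 macrophage and 6 of 8 neutrophil markers were called lower at P28. So were 7 of 7 B lymphoid, 5 of 9 mast cell and basophil, 1 of 5 megakaryocyte and 1 of 8 stroma and endothelium markers. Of all genes 4.56% were called lower. Of the LSK markers 4 of 10 were called higher, with 3.12% of all genes called higher. The P28 WT sums were 478 to 644 CPM for erythroid, 674 to 880 CPM for neutrophil and 73.4 to 109 CPM for macrophage markers.

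The part of these markers in the fall of the members was not tested. In the 2 newborn libraries numbered 1, whose erythroid, neutrophil and macrophage sums were nearest to the P28 ranges while the mast cell and basophil sum of the WT library was the highest of all, Lin28b was at 34.8 and 110 CPM, Igf2bp3 at 100.2 and 103 CPM and Hmga2 at 166 and 395 CPM, all at newborn levels. Lin28a, at 0.0604 and 0.34 CPM, was the 1 member of the 7 at P28 levels there. Without these 2 libraries, an alternative chosen after seeing the data, the same 5 members were still called lower in both age comparisons. The log2 fold change of Lin28b was then -3.46 in WT and -4.14 in ME. The newborn libraries left are those with the higher erythroid, neutrophil and macrophage sums, so these calls cannot show the part of those markers.

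**Figure D2:**
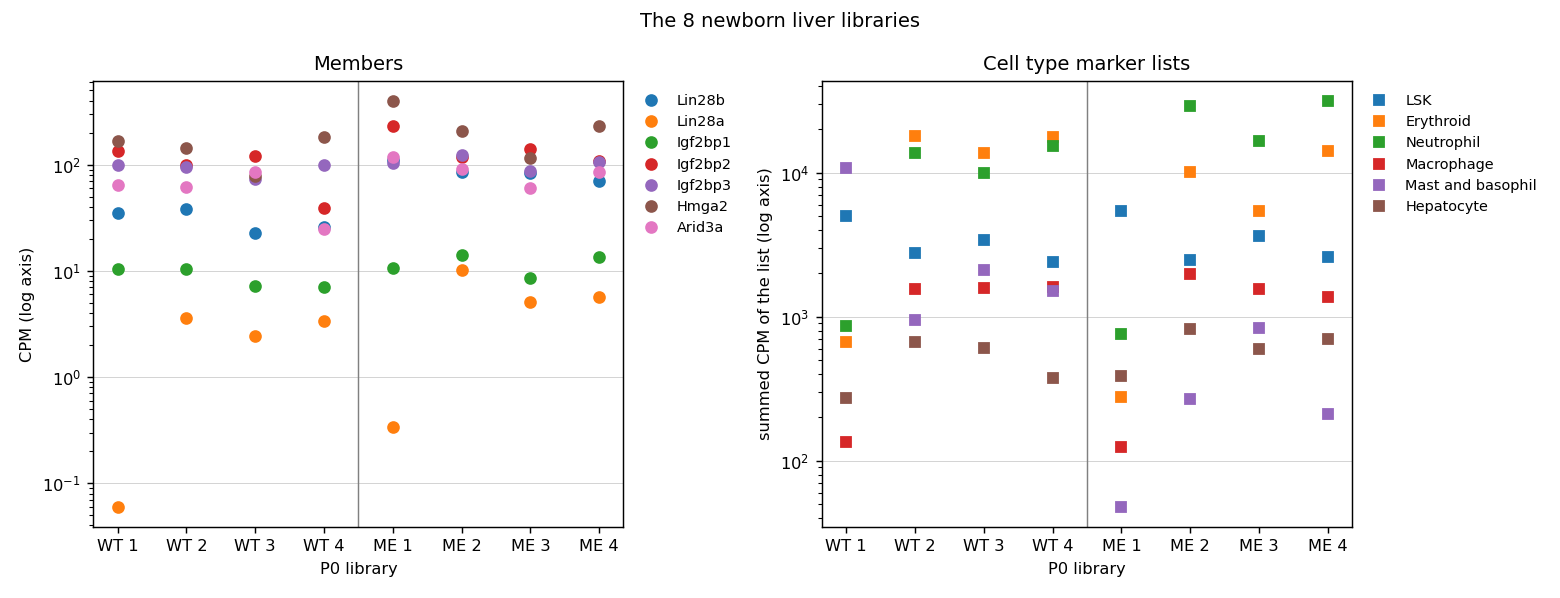
CPM of the 7 members (left) and summed CPM of 6 cell type marker lists (right) in the 8 newborn liver libraries, both on log axes, 1 symbol per library. WT 1 and ME 1 have the lowest erythroid (664 and 279 CPM), neutrophil and macrophage sums, and Lin28a drops in the same 2 libraries while the other members do not.

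Per kilobase of exon, which allows genes to be compared, Hmga2 had the highest mean of the members in WT newborn cells at 20.9 ± 6.61 RPKM (CPM per kilobase of exon, SD, n = 4). Igf2bp2 followed at 13.3 ± 5.68 RPKM, Igf2bp3 at 11.3 ± 1.58 RPKM and Arid3a at 10.6 ± 4.53 RPKM. These 3 overlapped each other and the 11.7 to 26.7 RPKM of Hmga2. In P0 WT library 3 Hmga2, at 11.7 RPKM, was below Igf2bp2 at 16.4 RPKM and Arid3a at 15.3 RPKM. Lin28b was at 3.37 ± 0.82 RPKM, Igf2bp1 at 0.91 ± 0.20 RPKM and Lin28a at 0.59 ± 0.40 RPKM. In P28 WT cells Hmga2 was again highest at 5.92 ± 1.17 RPKM, with Arid3a second at 3.05 ± 0.46 RPKM and Lin28b at 0.29 ± 0.11 RPKM.

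Summed over the 3 IGF2BP genes, the level was 25.5 ± 5.50 RPKM (SD) in P0 WT and 34.2 ± 7.22 RPKM in P0 ME. At P28 it was 3.14 ± 0.58 RPKM in WT, 7.67 ± 1.54 RPKM in E10.5-induced ME, 3.85 ± 0.32 RPKM in P0-induced ME and 0.86 ± 0.41 RPKM in RLT Vav Txp cells. The makeup of that sum differed between groups. Igf2bp1 gave 3.60 ± 0.57% of it in P0 WT and 0.70 ± 0.31% in P28 WT.

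Igf2bp2 gave 50.3 ± 14.8% of the sum in newborn WT cells and 57.8 ± 9.66% in newborn ME cells. At P28 it gave 65.3 ± 5.73% in WT and 82.0 ± 1.55% in E10.5-induced ME. It gave 52.1 ± 13.6% in P0-induced P28 ME and 81.1 ± 8.78% in RLT Vav Txp cells. The shares in E10.5-induced P28 ME, 80.5 to 83.8%, were above every P28 WT and every P0-induced library. An exact permutation test, added after seeing the data, gave two-sided p = 0.0286 for each of these 2 differences, the smallest that 4 against 4 can give, and 0.0858 after adjustment over 9 comparisons.

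**Figure D3:**
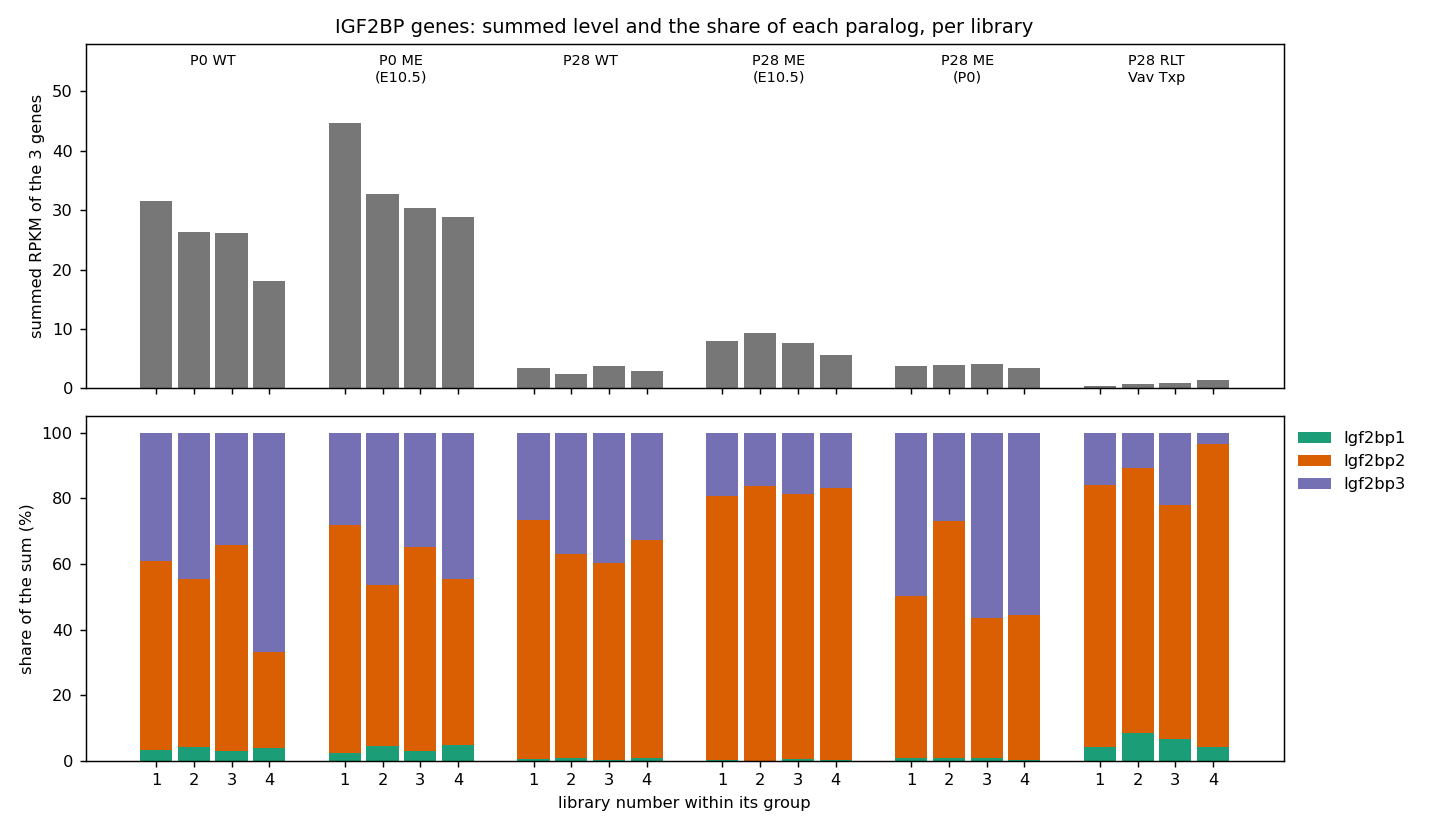
Summed RPKM of Igf2bp1, Igf2bp2 and Igf2bp3 (top) and the percentage given by each (bottom) in the 24 libraries, by group. The sum is highest at P0, and the Igf2bp2 share of 80.5 to 83.8% in E10.5-induced P28 ME lies above that of every P28 WT library (59.8 to 72.9%).

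The effect of the fusion in newborn cells was examined next. None of the 7 members was called in P0 ME against P0 WT, where 0.642% of all genes were called by edgeR, although all 7 had positive log2 fold changes with a median of 0.59, against -0.01 over all genes. Unadjusted edgeR p was 0.0416 for Lin28b, 0.0258 for Hmga2 and 0.0352 for Arid3a. The exact permutation test gave 0.0286, 0.2 and 0.229 for these genes. The shares of all genes with a positive change or with such an unadjusted p are not given here. The members' signs and unadjusted p are therefore not read as a shift of the axis.

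Lin28b, given above by library, was at 30.5 ± 7.42 CPM (SD) in WT and 87.0 ± 16.9 CPM in ME. The lowest ME library, at 69.8 CPM, was above the highest WT library, at 38.6 CPM, and 2.18% of all genes were separated upwards in this way. The log2 fold change was 1.51 ± 0.70 (SE, n = 4 per group, adjusted p = 0.331 in edgeR), and an exact permutation test gave two-sided p = 0.0286.

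The call on Lin28b differed between fits. The fit over 6 groups shares 1 estimate of spread per gene, and the RLT Vav Txp libraries ranged from 0.0551 to 3.92 CPM for Lin28b. The part of that spread in the differing calls was not tested. With the 4 RLT Vav Txp libraries left out, edgeR gave the same log2 fold change of 1.51 with an adjusted p of 0.0099. Adding the replicate number as a block to that fit gave 1.52 with 0.00192, although no label ties the numbers. Over all 6 groups, limma voom with quality weights gave 1.35 with 0.0169. With the newborn groups fitted alone the adjusted p was 0.138 and with DESeq2 0.286. Other scalings, other filters and the leaving out of single libraries did not call it either, with adjusted p up to 0.512.

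Hmga2 lay above the WT range in 3 of the 4 ME libraries, with a log2 fold change of 0.75 ± 0.31 (SE, adjusted p = 0.276 in edgeR). Its highest value, 395 CPM, came from ME library 1, one of the libraries that stood apart, and without both such libraries the log2 fold change was 0.47. Arid3a had a log2 fold change of 0.58 ± 0.26 (SE, adjusted p = 0.307 in edgeR), Igf2bp2 of 0.59 ± 0.34, Igf2bp1 of 0.42 ± 0.52 and Igf2bp3 of 0.19 ± 0.28. Lin28a was at 0.34, 10.2, 5.06 and 5.65 CPM in the ME libraries, a log2 fold change of 1.17 ± 1.05 (SE).

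In marrow at P28, 1 of the 7 members was called in E10.5-induced ME against WT, with 12.3% of all genes called. That gene was Igf2bp2. Its values of 47.7, 58.2, 45.7 and 34.7 CPM did not overlap the WT values of 11.4 to 18.3 CPM, a separation upwards seen in 16.6% of all genes. The log2 fold change was 1.62 ± 0.35 (SE, adjusted p = 0.00565 in edgeR), a 3.07-fold rise, and the call held under every alternative, with adjusted p up to 0.0403.

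Among the other members Arid3a also separated, at 19.1, 23.9, 23.6 and 20.8 CPM against at most 19.0 CPM in WT, with a log2 fold change of only 0.37 ± 0.26 (SE, adjusted p = 0.395 in edgeR). Lin28b, at 2.88 to 5.73 CPM against 1.73 to 3.91 CPM, had a log2 fold change of 0.77 ± 0.70 (SE, adjusted p = 0.525 in edgeR). The groups overlapped. Igf2bp3 had a log2 fold change of 0.34 ± 0.29 and Hmga2 of -0.13 ± 0.31, whose sign turned when either E10.5-induced library 1 or WT library 3 was left out (0.01 and 0.02). Lin28a and Igf2bp1 were at 0.61 CPM or less in every P28 library, and no fold change is given for them between P28 groups.

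Whether the effect of E10.5-induced ME differed between P28 and P0 was tested as an interaction. No member was called, with 0.72% of all genes called. The difference was 1.03 ± 0.49 for Igf2bp2 (log2, SE, adjusted p = 0.291 in edgeR), -0.87 ± 0.44 for Hmga2 (0.329) and -0.74 ± 0.98 for Lin28b (0.762). A larger effect on Igf2bp2 at P28 than at P0 is thus not shown.

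With ME induced at birth no member was called against P28 WT, where 1.57% of all genes were called. Lin28b was at 1.53, 1.52, 0.875 and 1.20 CPM, each below the lowest WT library at 1.73 CPM, a separation downwards seen in 10.4% of all genes. Its log2 fold change was -1.04 ± 0.72 (SE, adjusted p = 0.445 in edgeR), with adjusted p = 0.0442 once the RLT Vav Txp libraries were left out. Igf2bp3 was at 15.7, 8.78, 19.2 and 15.5 CPM and overlapped WT only through library 2. Its log2 fold change was 0.76 ± 0.29 (SE, adjusted p = 0.134 in edgeR, and 0.0472 with the 2 groups fitted alone). The fit without the RLT Vav Txp libraries called 802 of all genes and that of the 2 groups alone 5196, against 362 in the main fit.

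Igf2bp2 in P0-induced cells, at 14.1, 21.2, 13.1 and 11.2 CPM, lay over the WT range. Its log2 fold change was -0.03 ± 0.34 (SE), whose sign turned in 5 of the leave-one-out fits, between -0.22 and 0.10. Hmga2 and Arid3a had log2 fold changes of -0.24 ± 0.31 and 0.19 ± 0.26.

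The 2 induction times were then compared directly at P28. edgeR called no member, and only 0.0477% of all genes. Igf2bp2 was lower with induction at P0 in every library, at most 21.2 CPM against at least 34.7 CPM, with a log2 fold change of -1.64 ± 0.35 (SE, adjusted p = 0.101 in edgeR). Lin28b was lower in every library as well, at most 1.53 CPM against at least 2.88 CPM (-1.81 ± 0.72, adjusted p = 1 in edgeR). Of all genes, 7.18% were separated downwards like these. The adjusted p for Igf2bp2 was 0.0018 with DESeq2, 9.77e-07 with limma voom and 0.000915 with these groups fitted alone. For Lin28b the last 2 of these fits gave 0.000854 and 0.0039. The 3 fits called 92, 2333 and 1147 of all genes, against 11 in the main fit. Both comparisons with WT share these ME libraries, so the 3 values for Igf2bp2 (1.62, -0.03 and -1.64) are not independent.

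In RLT Vav Txp cells Igf2bp2, Igf2bp3 and Hmga2 were lower than in every other P28 group, and Lin28a, Igf2bp1, Lin28b and Arid3a were not separated from them all. Against P28 WT 3 of the 7 members were called lower, with 1.48% of all genes called lower. The same 3, Igf2bp3, Igf2bp2 and Hmga2, were called lower against E10.5-induced ME, with 9.38% of all genes called lower, and against P0-induced ME, with 4.9% called lower. The RLT Vav Txp libraries are shared by these 3 comparisons.

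Igf2bp3 was at 0.56, 0.66, 1.53 and 0.38 CPM in the RLT Vav Txp libraries, resting on 21 to 66 counts. Every other P28 library was at 7.32 CPM or more. The 3 called genes lay below all libraries of each comparison group, as did 4.45% of all genes against WT, 14.2% against E10.5-induced ME and 12.6% against P0-induced ME. The gene fell 11.4-fold against WT (log2 fold change -3.51 ± 0.33 SE, adjusted p = 3.07e-07 in edgeR), with log2 fold changes of -3.85 ± 0.33 against E10.5-induced ME and -4.27 ± 0.33 against P0-induced ME.

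Igf2bp2 was at 2.50, 4.50, 4.51 and 9.64 CPM, all below the lowest WT library at 11.4 CPM. It was lower by -1.52 ± 0.35 (log2, SE, adjusted p = 0.0112 in edgeR) against WT, by -3.14 ± 0.37 against E10.5-induced ME (adjusted p = 5.75e-06) and by -1.50 ± 0.35 against P0-induced ME (adjusted p = 0.008). The calls on Igf2bp3 and Igf2bp2 held under every alternative run.

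Hmga2 was at 7.41, 16.1, 19.3 and 26.1 CPM, with RLT Vav Txp library 1 the lowest and every library below the other P28 libraries. Against WT its log2 fold change was -1.22 ± 0.32 (SE, adjusted p = 0.0255 in edgeR). This call was lost without RLT Vav Txp library 1, 2 or 3 (adjusted p of 0.0782, 0.0727 and 0.0536), without WT library 2, 3 or 4 (0.0576, 0.101 and 0.0507) and with no filter on low counts (0.0664). Against E10.5-induced ME it was -1.09 ± 0.32 (adjusted p = 0.0197), lost without E10.5-induced library 2 (0.0671), without RLT Vav Txp library 2 (0.0545) and with no filter (0.0552). Against P0-induced ME it was -0.98 ± 0.32 (adjusted p = 0.0443), a call that 10 alternatives did not make, those without any 1 of the 4 P0-induced libraries or RLT Vav Txp library 1, 2 or 3 among them (0.0687 to 0.105).

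Lin28b split the RLT Vav Txp libraries. Libraries 1 and 2, whose titles share a stem, were at 0.0584 and 0.0551 CPM from 4 counts each. Library 3 was at 0.88 CPM from 38 counts and library 4 at 3.92 CPM from 218 counts. Library 4 was level with the highest P28 WT library, at 3.91 CPM. Libraries 1 and 2 held fewer counts than the filter's minimum of 10, so Lin28b entered these comparisons through the other groups. Its fold changes here are therefore described without a test. The fitted log2 fold change against WT was -1.12 ± 0.72 (SE), and -3.14 in the fit without library 4, the highest. Against P0-induced ME the fitted value was -0.08 with library 4 and -2.09 without it.

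Arid3a was not called in the RLT Vav Txp cells. Its values of 24.5, 14.1, 21.8 and 17.3 CPM overlapped the 13.2 to 19.0 CPM of P28 WT, with a log2 fold change of 0.19 ± 0.26 (SE, adjusted p = 0.834 in edgeR). Igf2bp1, at 0.18 to 0.61 CPM and 12 to 44 counts, made up 5.86 ± 2.04% of the IGF2BP sum here, against less than 1% in every other P28 library.

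Macrophage markers moved with the RLT Vav Txp group: 8 of 9 were called higher against WT and all 9 against each of the other 2 ME groups, among them the defining Adgre1 and Csf1r. Of all genes 2.64% were called higher against WT and 8.5% against E10.5-induced ME. The share called higher against P0-induced ME is not given here. Of 5 tested megakaryocyte markers 3 were called higher against each of the 3 groups, with sums of 208 to 404 CPM against 33.7 to 66.5 CPM in the other P28 groups. Against P0-induced ME 6 of 10 erythroid and 4 of 8 neutrophil markers were called higher, and against E10.5-induced ME 4 of 9 mast cell and basophil and 4 of 7 B lymphoid markers. Of the LSK markers 3 of 10 were called lower and 1 higher against WT, with 1.48% of all genes called lower. The part of these markers in the lower Igf2bp3, Igf2bp2 and Hmga2 was not tested.

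**Figure D4:**
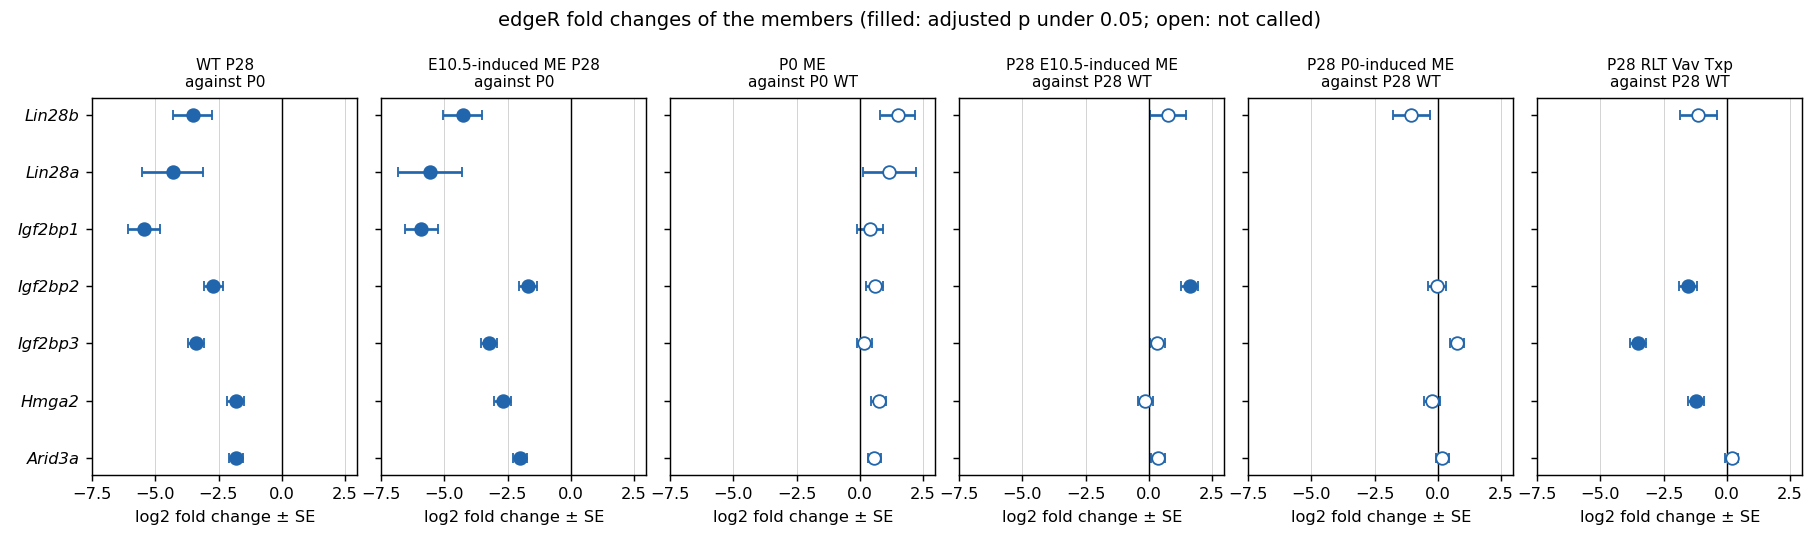
edgeR log2 fold change ± SE of each member in 6 comparisons, filled where the adjusted p was under 0.05; Lin28a and Igf2bp1 are not drawn between P28 groups, where they were at 0.61 CPM or less. All 7 lie below 0 and are filled in both age comparisons, where Lin28a and Igf2bp1 are a description only and not a test. Igf2bp2 alone is filled in E10.5-induced P28 ME against WT (1.62). Igf2bp3 (-3.51), Igf2bp2 (-1.52) and Hmga2 (-1.22) are filled in RLT Vav Txp against WT, where Lin28b is a description only.

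The order of the group means put P0 ME first and P0 WT second for all 7 members. Those neighbours overlapped in every member but Lin28b. For Igf2bp2 the third group, E10.5-induced P28 ME, reached into the P0 WT range, since its highest library at 58.2 CPM exceeded P0 WT library 4 at 39.4 CPM. The last place belonged to RLT Vav Txp for Lin28b, Igf2bp2, Igf2bp3 and Hmga2, and to P28 WT for Arid3a, with overlap of its neighbour for Lin28b and Arid3a. Below 1 CPM, the order of Lin28a and Igf2bp1 among P28 groups carried no separation.

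Upstream of the axis, 13 enzymes and partners of let-7 processing and decay were examined. None was called in P0 ME against WT. In E10.5-induced P28 ME 6 of 13 were called higher and none lower, where 7.82% of all genes were called higher and 4.44% lower, with a median log2 fold change of 0.56 against -0.10 over all genes. Xpo5, the exportin that carries precursor hairpins out of the nucleus, went from 60.1 ± 12.9 CPM (SD) in P28 WT to 134 ± 15.3 CPM (log2 fold change 1.16 ± 0.20 SE, adjusted p = 0.00206 in edgeR). Dgcr8, the partner of Drosha in cutting primary transcripts, rose by 0.89 ± 0.21 (log2, SE, adjusted p = 0.00862 in edgeR, and 0.055 without WT library 2).

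With P0 induction none of the 13 was called against WT. Xpo5 was at 101 ± 4.85 CPM in that group. In RLT Vav Txp cells none was called against WT and 4 were called lower against E10.5-induced ME, with 9.38% of all genes called lower, Xpo5 among them (-0.90 ± 0.20, adjusted p = 0.00372 in edgeR). With age, WT cells had 2 of 13 called lower and none higher, with 4.56% and 3.12% of all genes called. Dicer1, which cuts precursor hairpins, was among the lower (-0.89 ± 0.21, adjusted p = 0.0088 in edgeR, and 0.086 with the 2 groups fitted alone). ME cells had 4 of 13 called higher and none lower, with 9.79% and 8.45% of all genes called.

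Of the host transcripts of let-7, Mir99ahg, which holds let-7c-1, passed the filter. It was at 16.4, 17.6, 12.5 and 11.6 CPM in P0 WT and at 29.9, 26.8, 42.8 and 25.9 CPM in P28 WT, the opposite direction to the members. The rise of 1.11 ± 0.34 (log2, SE, adjusted p = 0.0438 in edgeR) lost its call in 10 alternatives, those without P0 WT library 2, 3 or 4 or any 1 of the P28 WT libraries among them (0.0586 to 0.157).

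In the P28 ME groups Mir99ahg was low instead. It was at 4.25, 3.35, 4.46 and 2.15 CPM with E10.5 induction, at 5.56, 3.94, 6.49 and 4.96 CPM with P0 induction, and at 3.67, 6.95, 4.48 and 11.6 CPM in RLT Vav Txp cells. All 12 of these libraries were below every P28 WT library. The log2 fold changes against WT were -3.14 ± 0.37, -2.58 ± 0.36 and -2.23 ± 0.35 (SE, adjusted p = 2.46e-05 in edgeR, 0.000873 and 0.000276), called under every alternative run. At P0 the ME effect was 0.03 ± 0.34, and the interaction of -3.17 ± 0.49 (SE) was called (adjusted p = 0.0025 in edgeR).

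Of 26 other known let-7 target genes, none was called in P0 ME against WT. With age, WT cells had 1 called higher and 4 lower, where 3.12% and 4.56% of all genes were called, with a median log2 fold change of -0.38 against -0.07 over all genes. Hmga1, the closest relative of Hmga2, fell from 315 ± 63.9 to 138 ± 42.2 CPM (SD; log2 fold change -1.19 ± 0.23 SE, adjusted p = 0.00185 in edgeR), and Cdc34, a ubiquitin-conjugating enzyme gene, fell by 1.24 on the log2 scale (SE 0.24, adjusted p = 0.00207 in edgeR). Both held under every alternative run. The 1 target called higher was Ccnd2, a D cyclin gene named after its values were seen, at 0.44 ± 0.14 (log2, SE, adjusted p = 0.0434 in edgeR).

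In ME cells 3 of the 26 were called higher with age and 4 lower, shares near the 9.79% and 8.45% of all genes. Myc rose from 213 ± 37.6 to 650 ± 102 CPM (SD; log2 fold change 1.61 ± 0.23 SE, adjusted p = 5.35e-05 in edgeR) and Ccnd2 by 0.88 ± 0.14 (log2, SE), while Arid3b, the relative of Arid3a, fell by 1.04 on the log2 scale (SE 0.22, adjusted p = 0.00175 in edgeR).

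At P28 5 of the 26 targets were called higher and 1 lower in E10.5-induced ME against WT, with 7.82% and 4.44% of all genes called. Hmga1 rose from 138 ± 42.2 to 255 ± 45.9 CPM (SD; log2 fold change 0.89 ± 0.23 SE, adjusted p = 0.0132 in edgeR), a call lost without WT library 1 or 2 or E10.5-induced library 2 (0.0895, 0.0844 and 0.0506). Hmga2 was not called in that comparison. In RLT Vav Txp cells 9 of 26 were called lower and 1 higher against E10.5-induced ME, where 9.38% and 8.5% of all genes were called, led by Hmga1 (-1.52 ± 0.23, adjusted p = 0.000112 in edgeR) and Map4k4, a kinase gene (-1.09 ± 0.21, adjusted p = 0.000948 in edgeR), and 1 was called lower and 2 higher against WT, where 1.48% and 2.64% of all genes were called. P0 induction gave no call among them against WT.

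Among 16 genes of IGF2BP partners, clients and the m6A mark that IGF2BP proteins read, 6 were called higher and none lower in E10.5-induced P28 ME against WT, with 7.82% and 4.44% of all genes called. Hnrnpu, a nuclear RNA-binding protein gene, went from 998 ± 47.9 to 2009 ± 204 CPM (SD; log2 fold change 1.01 ± 0.23 SE, adjusted p = 0.00681 in edgeR), and Pabpc1, the cytoplasmic poly(A)-binding protein gene, rose by 0.67 ± 0.15 (log2, SE, adjusted p = 0.00681). With age 2 of 16 were called lower in WT, H19, a non-coding IGF2BP client, and Wtap, a subunit of the m6A writer, with 4.56% of all genes called lower. H19 was at 0 to 1.85 CPM in P28 WT and entered through the newborn side, so it is a description and not a test. With these groups fitted alone both calls were lost (adjusted p of 0.0515 and 0.127), and that of Wtap also with plain library totals (0.0663). ME cells had 6 called higher and 3 lower, against 9.79% and 8.45% of all genes, with the writer subunits Mettl3 (0.86 ± 0.16, adjusted p = 0.000578 in edgeR) and Mettl14 (0.89 ± 0.19, adjusted p = 0.00242) higher and Wtap lower (-0.63 ± 0.14, adjusted p = 0.00342). Against E10.5-induced ME, RLT Vav Txp cells had 8 called lower and 1 higher, against 9.38% and 8.5% of all genes, with the m6A readers Ythdf1 (-0.64 ± 0.14) and Ythdf2 (-0.69 ± 0.15) among the lower.

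**Figure D5:**
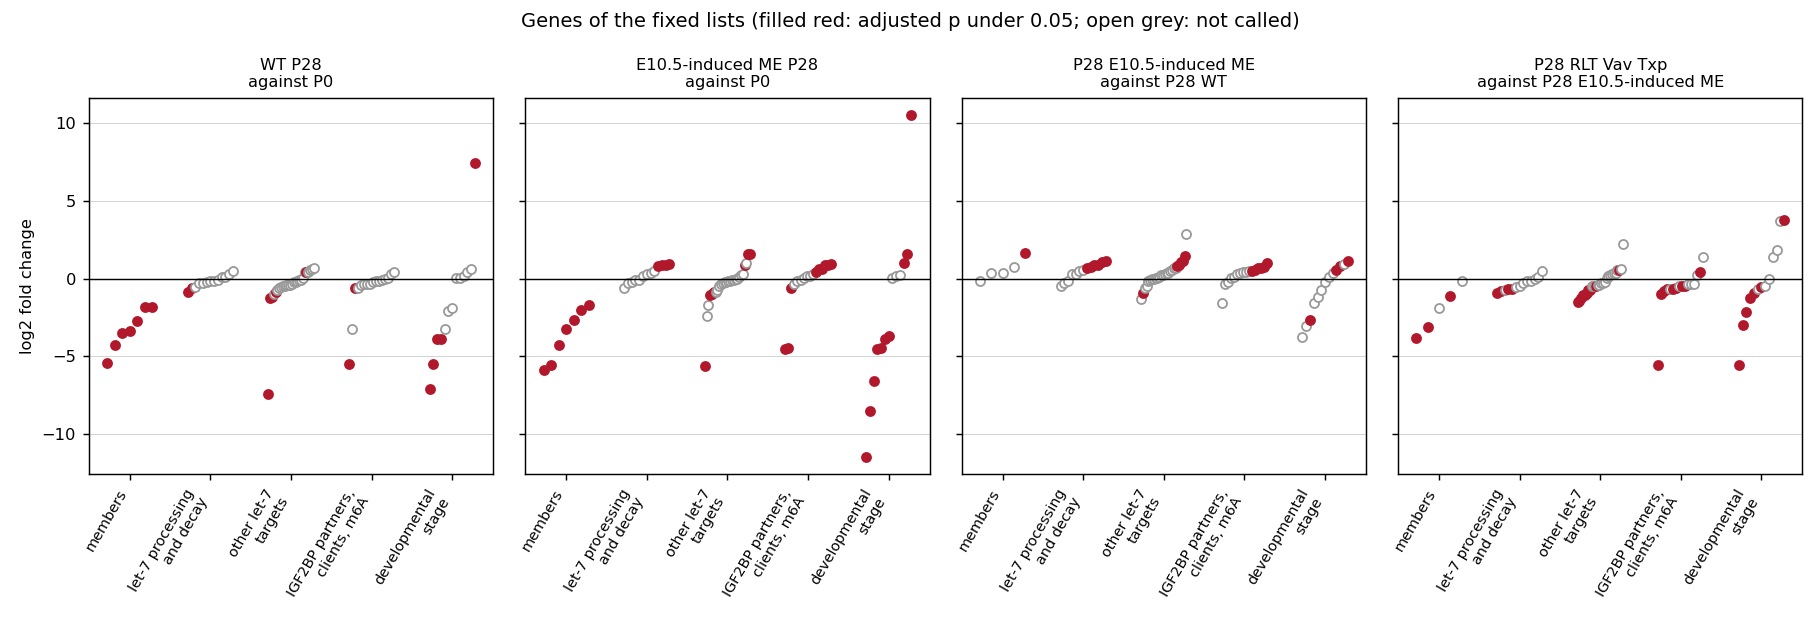
edgeR log2 fold change of each tested gene of the members and of 4 lists in 4 comparisons, with genes ordered by value within a list and filled red where the adjusted p was under 0.05 (Lin28a and Igf2bp1 not drawn between P28 groups). The members lie below 0 and are red with age, where Lin28a and Igf2bp1 are a description only and not a test. The let-7 target list has calls with age in both directions (1 higher and 4 lower in WT).

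Among 7 near relatives of the members, 1 (Hmga1) was called higher and none lower in E10.5-induced P28 ME against WT, with 7.82% and 4.44% of all genes called. Hmga1 was also the 1 called lower with age in WT, where 4.56% of all genes were called lower. With age in ME cells 1 was called lower, Arid3b, with 8.45% of all genes called lower. Against E10.5-induced ME, RLT Vav Txp cells had 2 called lower, with 9.38% of all genes called lower. These were Hmga1 and its copy-like relative Hmga1b (-1.08 ± 0.30, adjusted p = 0.0154 in edgeR), whose reads may be shared. The call on Hmga1b was lost without RLT Vav Txp library 2 or 3 (0.0632 and 0.0536). No other comparison called any of the 7.

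Of 13 tested genes of other developmental stages, WT cells had 4 called lower and 1 higher with age, against 4.56% and 3.12% of all genes, and ME cells 7 lower and 3 higher, against 8.45% and 9.79%. Dlk1, an imprinted growth gene, fell from 70.2 ± 12.6 to 4.62 ± 2.61 CPM (SD) in WT (log2 fold change -3.92 ± 0.35 SE, adjusted p = 1.92e-07 in edgeR). Dntt, the terminal transferase that adds bases to adult-type receptor genes, went the other way, from 1.55 ± 0.95 to 262 ± 37.2 CPM (7.42 ± 0.91, adjusted p = 5.42e-05 in edgeR). In RLT Vav Txp cells 3 of 13 were called lower and none higher against WT, where 1.48% and 2.64% of all genes were called. H19 is among the lower there and in WT with age, as a description only. It was at 0 to 1.85 CPM in P28 WT and held at most 2 counts in RLT Vav Txp libraries. Dlk1 was at 0.50 ± 0.21 CPM in RLT Vav Txp cells (-3.21 ± 0.35 against WT, adjusted p = 3.32e-06 in edgeR). E10.5-induced P28 ME had 3 higher and 1 lower against WT, with 7.82% and 4.44% of all genes called. P0-induced P28 ME and P0 ME had none called.

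The genes whose profiles over the 24 libraries were most like each member were ranked by the root mean square difference between centred log2 CPM profiles, among 11306 genes and with no test. For Lin28b the nearest were Igf2bp2 at 1.33, Dlk1 at 1.41 and Hopx at 1.46 (log2 units). Dlk1 was also nearest to Igf2bp3, at 0.89. Igf2bp2 was nearest to Rflnb at 0.85, Hmga2 at 0.86 and Hif3a at 0.90, so Hmga2 stood second for Igf2bp2.

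The nearest to Hmga2 were Tnni2 at 0.62, Smkr-ps at 0.70 and Bfsp2 at 0.70, and to Arid3a Jund at 0.49, Tnni2 at 0.51 and Acpp at 0.53. Igf2bp3 was followed by Asprv1 at 1.05 and Nrtn at 1.14. For Lin28a they were Prom1 at 0.99, Ltb4r1 at 1.00 and Hsd11b1 at 1.01, and for Igf2bp1 Id3 at 1.22, Hdc at 1.25 and Smtnl2 at 1.25. The libraries share tissue and age, which separate most of the values, so these likenesses describe the data set and nothing beyond it.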

How the data were processed

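RNA-seq of mouse LSK cells was available as 1 table of whole-number counts per gene for 24 libraries. Per the submitters' processing notes, the authors used STAR 2.7.9a, featureCounts 2.0.3 and GRCm38; strand setting, treatment of multi-mapping reads and annotation release are not given in the sources used here. The deposited counts were used as they are. Of 55774 rows, 287 repeats of 168 identifiers were dropped. Library totals of 31233688 to 89774511 counts make 1 CPM at least 31.2 counts.

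Genes were filtered with filterByExpr (minimum count 10), scaled by TMM and tested with edgeR 4.0.16 (robust quasi-likelihood, 6 group means, 18 residual degrees of freedom), with Benjamini-Hochberg adjustment over 23059 genes and a threshold of 0.05, in R 4.3.3. RPKM used GENCODE M21 exon lengths. Alternatives used limma 3.58.1, DESeq2 1.42.0, other scalings, filters and libraries. The edgeR steps were run on simulated counts for P0 ME against P0 WT and for WT P28 against P0. These counts had the same spread in every group, so unequal spread between groups was not covered. Exact permutation tests over 4 against 4 libraries (70 splits) were two-sided, with a smallest p of 0.0286. The 7 members are always named. From each list at most 4 called genes with the smallest adjusted p are named per comparison, and for likeness the 3 nearest genes among those averaging 1 or more in log2 CPM. Members and lists were chosen with earlier results of these data known. The edgeR p-values set differences between groups against the spread between these samples, with 1 estimate per gene shared by the 6 groups. Whether a sample is 1 animal or a pool is not given in the sources used here.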

Additional observations from a re-analysis of the deposited data

Results flagged for a closer look

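In 42 tests of groups of 4 libraries, 3 single libraries lay far from the other 3 of their group, where chance alone gives about 1 in 20 groups. Igf2bp3 was high in P28 WT library 3, at 12.4 CPM against 7.32 to 7.70 CPM in the others, a gap of 0.925 of the group's range. Igf2bp3 was low in P0 WT library 3, at 72.8 CPM against 95.8 to 100.2 CPM, a gap of 0.84 of the range. Igf2bp1 was low in RLT Vav Txp library 1, at 0.175 CPM from 12 counts against 0.557 to 0.606 CPM, a gap of 0.887 of the range. Lin28a in the P0 libraries numbered 1 did not pass this limit.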

How the results depend on the processing

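Counts of called members moved with the fit. In RLT Vav Txp cells 3 members were called against each P28 group, and 2 to 4 over the alternatives, as Hmga2 lost or Lin28b gained its call. The Lin28b calls there are a description only, as RLT Vav Txp libraries 1 and 2 held 4 counts each. In P0 ME against WT none was called, and 1 (Lin28b) with the 20 numbered libraries alone, with limma voom and with the exact permutation test. In E10.5-induced P28 ME against WT 1 was called, and 2 with the exact permutation test. In P0-induced P28 ME against WT none was called, and 1 with the 20 numbered libraries alone, with the exact test and with the 2 groups fitted alone. All genes called there were 362 in the main fit, 802 with the 20 numbered libraries alone and 5196 with the 2 groups fitted alone. Between induction times none was called, 1 with DESeq2, and 2 with the 20 numbered libraries alone, limma voom, the exact test and those groups fitted alone. The cause was not tested. All genes called there rose from 11 to 92 with DESeq2, 2333 with limma voom and 1147 with those groups fitted alone. The exact test is unadjusted.

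Replicate numbers were not used as a pairing in the main fit, as no label ties them. Over all groups but RLT Vav Txp, 14 of 40 same-numbered pairs had deviations correlated above 0.1 (-0.394 to 0.66). Between the newborn groups numbers 1, 3 and 4 gave 0.66, 0.371 and 0.464 but number 2 gave 0.0531. Whether newborn libraries of the same number share a batch is not known. With the replicate number as a block, which the RLT Vav Txp titles do not allow, called members went from 0 to 1 in P0 ME against WT (Lin28b, adjusted p = 0.00192), from 1 to 2 in E10.5-induced ME, from 0 to 1 in P0-induced ME, each against WT, and from 0 to 2 between induction times. In P0-induced ME against WT the blocked fit called 946 of all genes, against 362 in the main fit.

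Signs turned for fold changes near 0 and for the Lin28a interaction of -1.25. With plain library totals Hmga2 between induction times was 0.0103, Arid3a in RLT Vav Txp against P0-induced ME -0.10 and the Igf2bp3 interaction -0.0432. That Arid3a value was -0.0176 in the exact test, -0.12 with limma voom and -0.0032 with no filter, and the Arid3a interaction was 0.0149 with limma voom. Lin28b in RLT Vav Txp against P0-induced ME was 0.0075 with the stricter filter and 0.0114 with those groups alone. Leaving out 1 library gave -0.27 to 0.0166 for Hmga2 in E10.5-induced ME against WT, -0.22 to 0.10 for Igf2bp2 in P0-induced ME against WT, -0.22 to 0.0229 for Hmga2 between induction times, -2.09 to 0.33 for Lin28b and -0.13 to 0.13 for Arid3a in RLT Vav Txp against P0-induced ME, and, for the interaction, -1.69 to 0.46 for Lin28a and -0.47 to 0.0785 for Arid3a. Counts of 0 to 44 limit Lin28a and Igf2bp1 at P28.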
